A study of Mus musculus with 6 samples.

Results

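The genes described here encode 39 lysosomal proteins, 28 of them soluble enzymes, activators and related proteins of the lysosomal lumen and 11 of them proteins of the lysosomal membrane. They were listed by name, by what their products do and with no threshold on a measured value, and they leave out the cathepsin proteases and the proton pump. The list was made with earlier results of these data known, so its counts beside those of all genes are descriptions. All 39 were found among the 23154 genes of the expression table. They were divided into 7 groups by what their products act on or what they do in the membrane.

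The lysosome is the acidic compartment in which a macrophage breaks down the material it engulfs and its own worn components. Each hydrolase removes a particular bond from a sphingolipid, glycoprotein, glycosaminoglycan, lipid, protein or nucleic acid, often as a single step of an ordered chain in which the product of an enzyme is the substrate of the next. Membrane proteins protect the limiting membrane, carry enzymes to it and export the released sugars, amino acids and ions, and inherited loss of many of these genes causes a lysosomal storage disease.

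Polyadenylated RNA was sequenced from RAW264.7 cells, a mouse macrophage cell line, that stably carried a doxycycline-inducible pINDUCER20b construct. The construct encoded HA-tagged NUR77, a nuclear receptor, in the line called NUR77 here, and GFP in the control line. In both lines doxycycline (1 µg/mL) was added 24 hours after plating and RNA was taken 18 hours later, so the 2 groups differ in the encoded protein and in being separately made stable lines. Each group had 3 libraries, each from its own dish of the same stable line, and the p-values below therefore measure the spread between dishes; effects of the protein and of the line cannot be told apart.

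Values are normalized reads, that is, reads scaled to 10000000 reads on genes in each library. The libraries held 14350490, 15929487 and 15299884 reads on genes for GFP and 11199468, 14354453 and 12569310 for NUR77. Nr4a1, the mouse gene for NUR77, was at 160 ± 11 normalized reads with GFP and 300 ± 13.2 with NUR77 (mean ± SD, n = 3), which is 0.90 higher on the log2 scale (SE 0.08, adjusted p = 5.5e-08); reads from the cell's own gene and from the construct cannot be told apart. The macrophage genes Ptprc and Spi1 differed little, with log2 fold changes of 0.03 and 0.09 that did not pass the test, while 5 of the 9 tested markers of a 10-gene macrophage list fell and 2 rose. The summed macrophage list took 0.511% to 0.532% of reads with GFP and 0.252% to 0.265% in the NUR77 libraries. Most of that difference was Lyz2, the lysozyme gene, with 26664 ± 848 normalized reads against 2566 ± 506; without Lyz2 the list took 0.250% to 0.256% and 0.231% to 0.234% of reads. That near-even sum held changes in both directions. Cd14, Tyrobp, Csf1r and Adgre1 of the same list also fell, with log2 fold changes of -1.26, -1.35, -0.77 and -0.59. Itgam, an integrin subunit of the list, rose from 4224 ± 57.8 to 9598 ± 388, and Fcgr1 rose by 0.23 on the log2 scale. Mertk, the other gene of that list, had at most 1.88 normalized reads in any library. NUR77 replicate 1 stood apart in 2 lists of markers of other cells: its 8 skeletal muscle genes summed to 185 normalized reads against 37.3 to 46.0 in the other 5 libraries, and its 8 fibroblast genes to 119 against 19.0 to 43.9. The 8 T and B cell markers summed to 2.79 to 4.58 normalized reads with GFP and 13.4 to 30.0 with NUR77, with 4 of them at 0 in all libraries. The rise was that of Cd79b (log2 fold change 3.94), and the other 7 summed to 2.09 to 3.92 and 0.893 to 1.59. The 5 epithelial markers summed to at most 0.893, with 3 at 0 throughout. Without NUR77 replicate 1, 28 of the 39 lysosomal genes were called lower and 6 higher, against 29 and 5 with it; the part of the macrophage and other markers in the results was not tested. In bulk RNA a lower level can reflect fewer cells with the transcript or less of it per cell, and these cannot be told apart.

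Most of the lysosomal genes were lower in the NUR77 line. Of the 39, all of which passed the filter on low values, 29 fell and 5 rose at an adjusted p under 0.05, and 5 did not pass the test. Among the 11201 genes tested, 28.3% fell and 38.4% rose. The median log2 fold change of the 39 genes was -0.77, with a range of -1.80 to 0.91, beside a median of 0.06 over all tested genes. Because the lysosomal genes are abundant, the same counts were taken over the 7714 genes with a mean of at least 200 normalized reads, of which 28.5% fell and 41% rose, with a median of 0.07. A fall of at least 2-fold was found for 13 of the 39 genes and for 6.19% of tested genes, and no gene among the 39 rose by that much. In 30 of the 39 genes every NUR77 library was below every GFP library, and in 6 every NUR77 library was above; over all tested genes these shares were 30.3% and 40.3%. The 28 genes of the lumen had 20 that fell and 4 that rose (median -0.83), and the 11 genes of the membrane had 9 that fell and 1, Hgsnat, that rose (median -0.75).

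**Figure D1:**
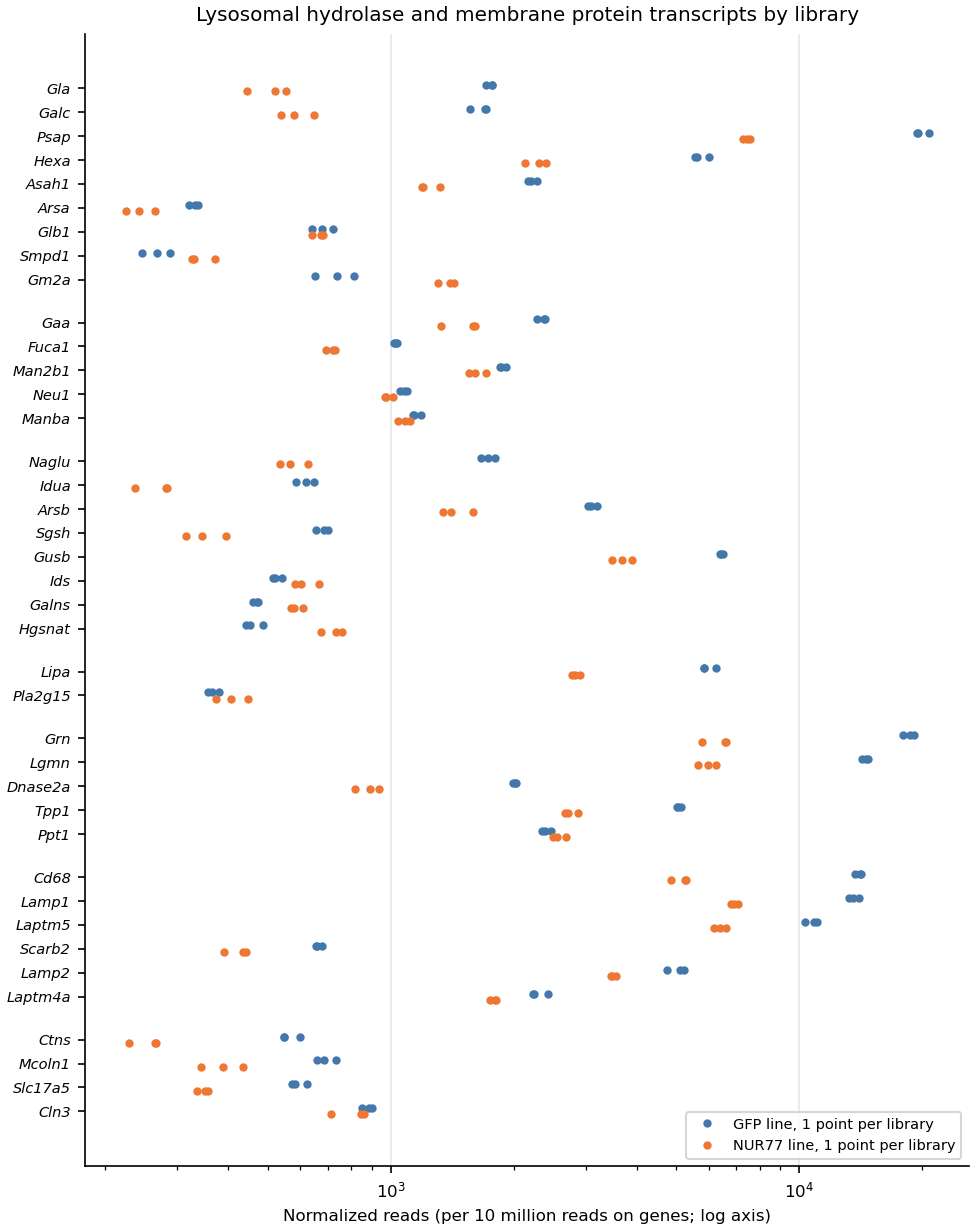
Normalized reads of the 39 genes on a log axis, with 1 point per library for the GFP line and the NUR77 line (n = 3 each) and genes grouped by substrate class or membrane role in the order of the text. The GFP and NUR77 points are separate for 36 of the 39 genes, with the NUR77 points to the left in 30 and to the right in 6.

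**Figure D2:**
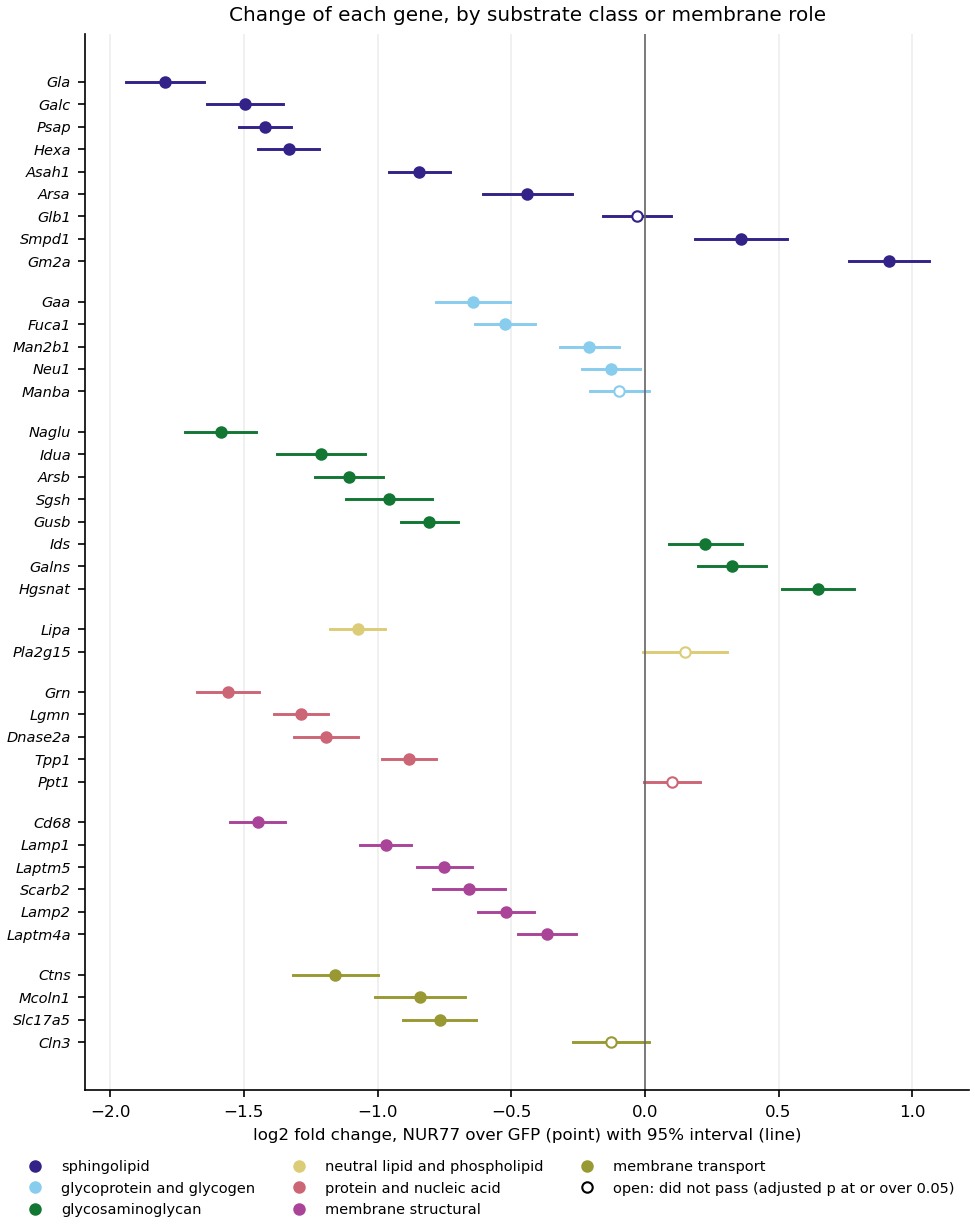
The log2 fold change of each gene (point) with its 95% interval (line), coloured by class, where open points mark genes that did not pass the test. All 6 structural membrane genes lie to the left of 0, while the sphingolipid and glycosaminoglycan groups span both sides.

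Many lysosomal genes carry a short palindromic sequence near their start, a form of the E-box that is read by the MiT/TFE transcription factors. The letters TCACGTG were searched on both strands in RefSeq promoters of GRCm38.p6, each 300 bases long from 250 bases before to 50 bases after a gene start. Promoters were matched for 36 of the 39 genes, with none for Asah1, Galns and Hgsnat. Of these, 10 genes, or 27.8%, held the letters, against 3.77% of 32851 promoters and 7.29% of 8790 tested genes. The letters contain CACGTG, which was found in the same 10 genes, in 7.15% of all promoters and in 12.2% of tested genes; the longer TCACGTGA was found in Cln3, Gla and Mcoln1, in 0.974% of all promoters and in 2.29% of tested genes. The first match in each of the 10 genes is shown 5′ to 3′ in the direction of the gene. It has 11 bases on either side and CACGTG in capitals. No sequence was used to choose the 39 genes. As the letters are known from lysosomal genes, their share in a lysosomal list is only a description.
Arsa: caactcagtgtCACGTGttgtctgctcc
Cln3: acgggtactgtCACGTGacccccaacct
Gaa: ttctgtgcgatCACGTGtttgactctga
Gla: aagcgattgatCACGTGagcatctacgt
Glb1: tgcttctgagtCACGTGgcctacagagg
Lamp1: gggcaagatatCACGTGgtccagcgccc
Lgmn: ggaatgtctgtCACGTGgtccattttat
Mcoln1: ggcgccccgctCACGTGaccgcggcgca
Naglu: aaccttcaggtCACGTGgcccgaggtcg
Sgsh: ggcctgccgtgCACGTGaccgtggggag
The matches lay at chr15:89477424-89477451 (minus strand) for Arsa, chr7:126583341-126583368 (minus) for Cln3, chr11:119267812-119267839 (plus) for Gaa, chrX:134601216-134601243 (minus) for Gla and chr9:114401019-114401046 (plus) for Glb1. They lay at chr8:13159089-13159116 (plus) for Lamp1, chr12:102439125-102439152 (minus) for Lgmn, chr8:3500463-3500490 (plus) for Mcoln1, chr11:101070010-101070037 (plus) for Naglu and chr11:119355523-119355550 (minus) for Sgsh. Counted to the first capital, they began 16 bases (Arsa) to 227 bases (Gla) before the listed start. For Cln3 and Lgmn the match was at 1 of 2 listed starts. The first bases after that Lgmn start were not found in any Lgmn transcript of the annotation used. Those after its other start, which had no match, were found. Lgmn is still counted among the 10 genes.

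The Lamp1 promoter held 4 copies of CACGTG, which began 61, 45, 28 and 15 bases before the gene start. Of all 32851 promoters, 195 held 2 or more copies and 8 held 4 or more; of 40 promoters listed for the 36 genes, 4 held 2 or more. The 250 bases upstream of Lamp1, at chr8:13158911-13159160 on the plus strand, are shown with the copies in capitals for their close spacing.
Lamp1 upstream: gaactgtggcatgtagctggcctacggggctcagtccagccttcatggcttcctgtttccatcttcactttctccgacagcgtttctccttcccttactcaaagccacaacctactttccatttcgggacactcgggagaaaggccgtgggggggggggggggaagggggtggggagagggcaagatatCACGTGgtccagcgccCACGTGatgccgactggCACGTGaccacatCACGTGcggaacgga
Of the 10 genes with TCACGTG, 8 fell and none rose (median log2 fold change -0.90), and Cln3 and Glb1 did not pass. Of the 26 genes with a promoter but without it, 20 fell and 3 rose (median -0.76). Over all tested genes with a promoter, 38.4% of those with TCACGTG fell (median -0.06) against 27.4% of those without (median 0.07). The share that fell was 41.3% with TCACGTGA and 33.1% with CACGTG. These counts are descriptions, and a match does not show that a factor binds there.

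The sphingolipid group comprised 9 genes, of which 6 fell, 2 rose and 1 did not pass (median -0.84). Over all tested genes 28.3% fell and 38.4% rose. The classes are small, and no difference from these shares was tested for any class. Gla, the alpha-galactosidase that removes galactose from globotriaosylceramide (chrX:134588149-134601125), had 1774, 1713 and 1771 normalized reads with GFP and 554, 445 and 520 with NUR77. It fell by 3.46-fold, the largest fall among the 39 genes, at -1.80 on the log2 scale (SE 0.07, adjusted p = 7.0e-13). Gm2a, the activator that lifts GM2 ganglioside out of the membrane for hexosaminidase (chr11:55098115-55113029), went the other way. It stood at 810, 652 and 737 in the GFP libraries and 1431, 1305 and 1393 in the NUR77 libraries, a 1.88-fold rise and the largest among the 39 (log2 fold change 0.91, SE 0.07, adjusted p = 6.4e-09). The groups did not overlap for either gene. Glb1, the beta-galactosidase, had 720, 643 and 678 reads in the GFP libraries and 641, 675 and 682 in the NUR77 libraries, which overlap (log2 fold change -0.03, 95% interval -0.16 to 0.10, adjusted p = 0.68).

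Psap encodes prosaposin, the precursor of 4 saposins that present sphingolipids to their enzymes, and it had the most normalized reads of the 39 genes. Its libraries stood at 20756, 19455 and 19515 with GFP and 7446, 7281 and 7563 with NUR77 (log2 fold change -1.42, SE 0.05, adjusted p = 5.6e-14). Hexa, the alpha subunit of hexosaminidase, fell from 5735 ± 244 to 2279 ± 132 (mean ± SD, n = 3; log2 fold change -1.33). Galc, the galactosylceramidase, fell from 1657 ± 80.8 to 587.8 ± 55.3 (log2 fold change -1.50), and Asah1, the acid ceramidase, from 2218 ± 58.2 to 1236 ± 69.6 (log2 fold change -0.84). Arsa, the arylsulfatase that acts on sulfatide, fell less, from 332, 320 and 337 to 224, 241 and 265 (log2 fold change -0.44, SE 0.08, adjusted p = 1.0e-04). Smpd1, the acid sphingomyelinase, was 267.3 ± 21.5 with GFP and rose to 342.6 ± 25.1 with NUR77, by 0.36 on the log2 scale (adjusted p = 9.6e-04).

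Changes were smaller in the glycoprotein and glycogen group, where 4 of 5 genes fell and none fell by 2-fold (median -0.21). Of all tested genes 28.3% fell, 6.19% by at least 2-fold, and 38.4% rose. Gaa, the acid alpha-glucosidase that degrades glycogen (chr11:119267887-119285454), had 2370, 2392 and 2275 reads in the GFP libraries and 1328, 1586 and 1604 in the NUR77 libraries (log2 fold change -0.64, SE 0.07, adjusted p = 2.0e-07). Of 24 tested genes around Gaa, 12 on each side by start position with the 39 genes left out, 13 fell and 5 rose (median -0.42). Such counts are given only for Gaa, Sgsh, Lipa and Scarb2, whose neighbours had the most extreme medians. For the rest of the 39 genes these medians ran from -0.20 to 0.24. Fuca1, the alpha-fucosidase, fell by 0.52 and Man2b1, the alpha-mannosidase, by 0.21 on the log2 scale. Neu1, the sialidase, was at 1077, 1054 and 1096 against 968, 975 and 1012 (log2 fold change -0.13, adjusted p = 0.038), and its call was lost under 6 of 16 other settings, including when any of 4 libraries was left out: GFP replicate 1 (adjusted p = 0.081), GFP replicate 3 (0.14), NUR77 replicate 1 (0.071) and NUR77 replicate 2 (0.093). Manba, the beta-mannosidase, had 1138, 1183 and 1136 reads against 1040, 1082 and 1114, and did not pass (log2 fold change -0.10, 95% interval -0.21 to 0.02, adjusted p = 0.12). Under TMM scaling it passed as lower (log2 fold change -0.17, adjusted p = 0.0095).

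The glycosaminoglycan group had 5 genes lower and 3 higher of 8 (median -0.88), while 28.3% of all tested genes fell and 38.4% rose. Naglu, which removes N-acetylglucosamine from heparan sulfate (chr11:101070012-101077672), fell from 1800, 1665 and 1732 normalized reads to 537, 566 and 628 (log2 fold change -1.59, SE 0.06, adjusted p = 6.8e-13). Hgsnat, the membrane acetyltransferase that prepares the substrate of Naglu (chr8:25944453-25976753), was at 452, 487 and 442 and rose to 732, 757 and 675, by 0.65 on the log2 scale (SE 0.06, adjusted p = 1.4e-07). The groups did not overlap for either of these consecutive steps.

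Heparan sulfate is taken apart in a fixed order by Ids, Idua, Sgsh, Hgsnat, Naglu and Gusb, and of these 6 genes 4 fell and 2 rose. Among all tested genes 28.3% fell and 38.4% rose, and with so few genes no difference from these shares was tested. Ids, the iduronate sulfatase, had 541, 521 and 516 reads in the GFP libraries and 666, 601 and 582 in the NUR77 libraries (log2 fold change 0.23, SE 0.06, adjusted p = 5.2e-03). Under TMM scaling the rise of Ids was smaller and only just passed (log2 fold change 0.15, adjusted p = 0.048). Idua, the iduronidase that follows it, fell from 617.8 ± 30.9 to 267 ± 26.3 (log2 fold change -1.21). Sgsh, the sulfamidase, fell from 684, 700 and 657 to 314, 346 and 395 (log2 fold change -0.96, SE 0.08, adjusted p = 8.3e-09). It shares 955 bases, or 21.6% of its exon length, with Card14 on the opposite strand, whose level was 72.7 normalized reads with GFP and 9.84 with NUR77. The 24 tested genes around Sgsh had a median of -0.43, with 14 lower and 4 higher. Sgsh lies near Gaa, and their neighbours are partly the same. Gusb, the beta-glucuronidase, fell from 6444 ± 55.2 to 3688 ± 208 (log2 fold change -0.81). Of the 2 sulfatases that act on other glycosaminoglycans, Arsb, which acts on dermatan sulfate, fell by 1.11 on the log2 scale, and Galns, which acts on keratan sulfate, was 467.5 ± 6.49 with GFP and rose to 586.3 ± 21.8 with NUR77, by 0.33 on the log2 scale (adjusted p = 1.3e-04). The 5 sulfatases among the 39 genes comprised 3 that fell (Arsa, Arsb and Sgsh) and 2 that rose (Galns and Ids). They too are few beside the shares of all tested genes.

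Of the 2 lipid enzymes, Lipa fell and Pla2g15 did not pass. Lipa, the acid lipase that frees cholesterol from cholesteryl esters (chr19:34492318-34527474), had 5850, 6250 and 5833 reads in the GFP libraries and 2900, 2783 and 2828 in the NUR77 libraries (log2 fold change -1.07, SE 0.05, adjusted p = 4.1e-12). Of the 24 tested genes around Lipa, 18 rose and 3 fell (median 0.43), beside 38.4% and 28.3% of all tested genes. Pla2g15, the lysosomal phospholipase, was at 380, 356 and 365 against 372, 406 and 447, and the groups overlapped (log2 fold change 0.15, 95% interval -0.01 to 0.31, adjusted p = 0.084). Without NUR77 replicate 1 it passed as higher (log2 fold change 0.22, adjusted p = 0.017).

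In the protein and nucleic acid group 4 of 5 genes fell, with a median of -1.19, beside 28.3% of all tested genes that fell. Grn encodes progranulin, a secreted and lysosomal glycoprotein that is cut into granulins in the lysosome (chr11:102430315-102437048). It fell from 18704, 19085 and 17950 normalized reads to 5769, 6572 and 6609 (log2 fold change -1.56, SE 0.05, adjusted p = 1.7e-13). Lgmn, the asparaginyl endopeptidase legumain, fell from 14776, 14584 and 14260 to 5658, 5985 and 6249 (log2 fold change -1.29, SE 0.05, adjusted p = 4.0e-13). Dnase2a, the acid DNase that digests engulfed DNA, fell from 2011 ± 17.3 to 881 ± 59.3, and Tpp1, the tripeptidyl peptidase, from 5070 ± 52.9 to 2752 ± 105. Ppt1, the thioesterase that removes palmitate from proteins, was at 2385, 2472 and 2347 in the GFP libraries and 2687, 2548 and 2502 in the NUR77 libraries. Its NUR77 libraries all lay above its GFP libraries, but it did not pass (log2 fold change 0.10, 95% interval -0.00 to 0.21, adjusted p = 0.077). Without NUR77 replicate 3 it passed as higher (log2 fold change 0.12, adjusted p = 0.049).

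All 6 genes of the structural membrane group fell (median -0.70), while 28.3% of all tested genes fell and 38.4% rose. Cd68, the heavily glycosylated macrophage membrane protein also used as a macrophage marker (chr11:69664213-69666153), fell from 14089, 14215 and 13726 normalized reads to 5256, 5292 and 4859 (log2 fold change -1.45, SE 0.05, adjusted p = 8.0e-14). Lamp1, the abundant glycoprotein of the limiting membrane (chr8:13159161-13175338) whose promoter holds the 4 copies shown above, fell from 14017, 13534 and 13237 to 7095, 6926 and 6799 (log2 fold change -0.97, SE 0.05, adjusted p = 7.5e-12). Lamp2, its relative, fell by 0.52 on the log2 scale. Scarb2, a membrane protein that also acts as a sorting receptor, fell by 0.66, while 18 of the 24 tested genes around it rose and 2 fell (median 0.32). Laptm5, a lysosomal protein of blood cells, fell by 0.75. Laptm4a, its broadly expressed relative, changed least, from 2424, 2235 and 2247 to 1745, 1813 and 1796 (log2 fold change -0.37, SE 0.05, adjusted p = 7.4e-06), and its groups still did not overlap.

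Of the 4 transport genes 3 fell (median -0.80), beside 28.3% of all tested genes that fell. Ctns, the cystine exporter (chr11:73183596-73199042), fell from 547, 547 and 601 normalized reads to 264, 229 and 267 (log2 fold change -1.16, SE 0.08, adjusted p = 6.4e-10). Mcoln1, the cation channel through which the lysosome releases calcium, fell from 736, 686 and 658 to 342, 388 and 434 (log2 fold change -0.84, SE 0.08, adjusted p = 7.6e-08). Slc17a5, the sialic acid exporter, fell from 593.1 ± 28.2 to 347.7 ± 11.1 (log2 fold change -0.77). Cln3, the membrane protein lost in juvenile Batten disease, was at 849, 898 and 883 against 714, 860 and 844, with overlap between the groups (log2 fold change -0.13, 95% interval -0.27 to 0.02, adjusted p = 0.11). It passed as lower under TMM scaling (log2 fold change -0.20, adjusted p = 0.014). Cln3 shares 442 exon bases with Apobr on the opposite strand, whose level was 1106 normalized reads with GFP and 1561 with NUR77.

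The libraries were made with a strand-specific kit, but no source used here says whether reads were counted by strand, so counts of genes with overlapping exons are uncertain. Besides Cln3 and Sgsh, such overlaps with a gene of at least 100 normalized reads concern Ppt1 (129 bases with Cap1), Idua (124 bases with Dgkq) and, on the same strand, Glb1 (165 bases with Tmppe). Cap1 was the most abundant of these neighbours, at 9827 reads with GFP and 10948 with NUR77.

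Together the 39 genes took 1.56%, 1.53% and 1.5% of all reads on genes in the GFP libraries and 0.754%, 0.771% and 0.772% in the NUR77 libraries. The mean share was 1.53% ± 0.0303 against 0.765% ± 0.0102 (SD, n = 3), a ratio of 0.501. The 5 genes with the most normalized reads in the GFP line, Psap, Grn, Lgmn, Cd68 and Lamp1, accounted for 0.806% of reads there and 0.318% with NUR77, which is 0.394 times as much. The other 34 genes went from 0.722% to 0.448%, a ratio of 0.620. By class the ratio was 0.434 for protein and nucleic acid genes, 0.441 for sphingolipid genes, 0.512 for neutral lipid and phospholipid genes and 0.522 for structural membrane genes. It was 0.588 for glycosaminoglycan genes, 0.658 for transport genes and 0.790 for glycoprotein and glycogen genes. Under TMM scaling the ratio of the summed reads was 0.476.

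**Figure D3:**
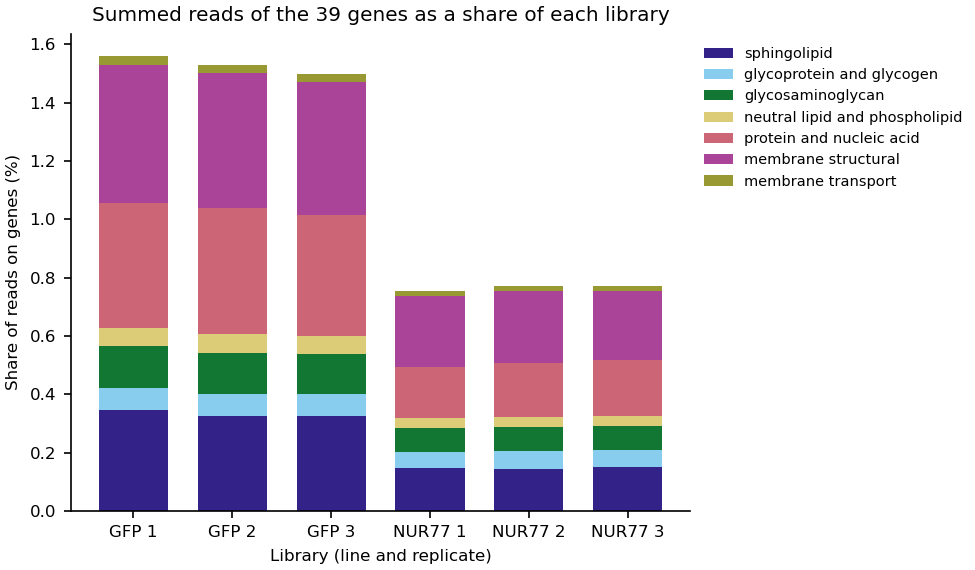
Summed reads of the 39 genes as a percentage of all reads on genes in each of the 6 libraries, stacked by class, with the bar axis starting at 0. The 3 GFP bars reach 1.5% to 1.56% and the 3 NUR77 bars 0.754% to 0.772%.

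Per kilobase of exon, Cd68 had the highest level of the 39 genes in both lines, at 11145 normalized reads per kilobase with GFP and 4086 with NUR77, followed by Psap at 7255 and 2708. Smpd1 was lowest with GFP, at 80.1, and Galc with NUR77, at 39.5. Gm2a moved from rank 24 to rank 15 of the 39, Hgsnat from rank 32 to rank 21, and Gla from rank 15 to rank 26. Across the 39 genes, the log2 of the level per kilobase and the log2 fold change had a Pearson r of -0.41 and a Spearman rho of -0.37. Without the 5 genes with the most reads these were -0.20 and -0.16 over 34 genes. Both measures come from the same libraries and genes are not independent, so no test was made. The coefficient of variation between libraries had a median over the 39 genes of 2.90% with GFP (0.856% to 10.8%) and 5.63% with NUR77 (1.61% to 11.8%).

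Because genes of the same pathway moved apart, log2 ratios of reads per kilobase were taken within each library for 10 pairs with related roles, which were chosen after their values were seen and are described without a test. The ratio of the activator Gm2a to its enzyme subunit Hexa was -3.94, -4.16 and -3.96 in the GFP libraries and -1.63, -1.92 and -1.77 in the NUR77 libraries, a difference of 2.25. The ratio of Hgsnat to Naglu went from -2.31, -2.09 and -2.29 to 0.13, 0.10 and -0.21, a difference of 2.24. Hgsnat over Sgsh was higher in the NUR77 line by 1.61, Ids over Idua by 1.44 and Glb1 over Ctsa, the protective protein of its complex, by 0.80. In these 5 pairs every NUR77 library lay above every GFP library. For Gm2a over Hexa, Hgsnat over Naglu, Hgsnat over Sgsh and Ids over Idua this follows from the single genes. In each of them the first gene rose and the second fell without overlap, so the separation of the ratios adds nothing to those changes. For Glb1 over Ctsa, Glb1 changed little (log2 fold change -0.03) and Ctsa fell without overlap (-0.83). In all 10 pairs the difference is close to that between the log2 fold changes of the 2 genes.

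Other ratios were lower or close to even. Psap, the source of the saposins, was lower relative to Arsa by a difference of -0.98 and relative to Asah1 by -0.58, while its ratio to Galc was 6.03 ± 0.06 with GFP and 6.10 ± 0.11 with NUR77 (SD, n = 3) and overlapped. Glb1 over Neu1 also overlapped, at -0.35 ± 0.07 and -0.25 ± 0.03. Lamp1 over Lamp2 differed by -0.45, without overlap.

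**Figure D4:**
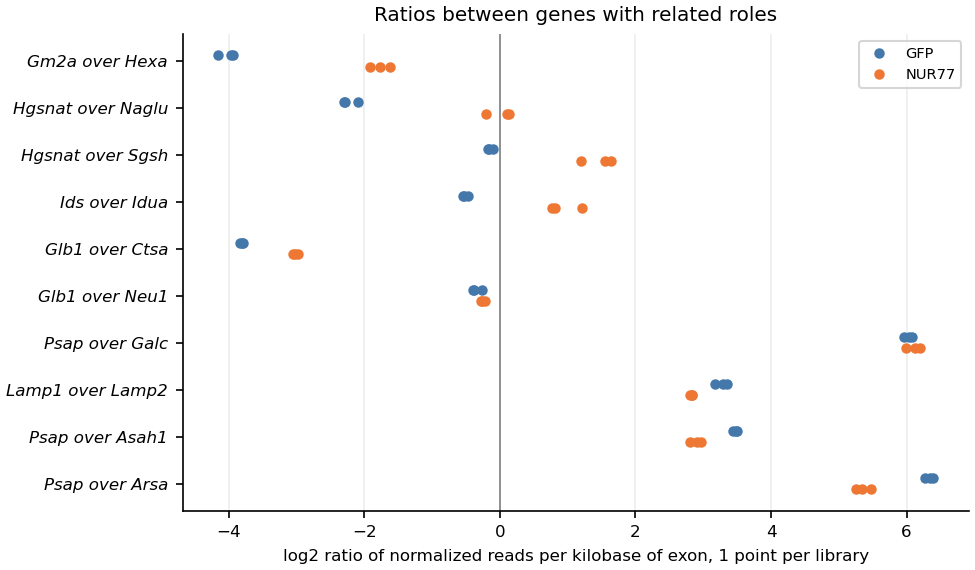
The log2 ratio of normalized reads per kilobase of exon between 2 genes with related roles, with 1 point per library (n = 3 per line). The NUR77 points lie right of the GFP points for Gm2a over Hexa (difference 2.25) and Hgsnat over Naglu (2.24), and left of them for Psap over Arsa (-0.98), while the points of the 2 lines overlap for Psap over Galc and Glb1 over Neu1.

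Lysosomal genes outside the 39 were also mostly lower. Of 98 further genes in 4 lists, 95 were tested, of which 67 fell, 15 rose and 13 did not pass (median -0.32). Over all tested genes 28.3% fell and 38.4% rose. Among 28 tested further luminal enzymes and cofactors 20 fell and 3 rose (median -0.32). Their largest changes were in Acp5, the tartrate-resistant acid phosphatase (log2 fold change -1.43), Arsg, an arylsulfatase (1.26), and Dpp7, a dipeptidyl peptidase (-1.25). Acp5 was low in both lines, at 25.1 ± 3.14 normalized reads with GFP and 8.75 ± 1.70 with NUR77. Among 32 further membrane proteins 22 fell and 6 rose (median -0.41), and some of these changes were larger than any among the 39. Slc15a3, a histidine and peptide transporter, went from 335.2 ± 21.7 up to 2434 ± 162 normalized reads, a rise of 2.86 on the log2 scale (SE 0.06). Mfsd12, a transporter needed for cysteine import, fell from 3267 ± 104 to 552.3 ± 25.0 (log2 fold change -2.56, SE 0.05), and Slc29a3, a nucleoside transporter, had a log2 fold change of -2.43.

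Most luminal hydrolases reach the lysosome by tags and sorting receptors, and 13 of 21 genes for tagging, activation and sorting fell while 5 rose (median -0.25). The shares over all tested genes were 28.3% lower and 38.4% higher. Igf2r, the large mannose phosphate receptor that collects tagged hydrolases in the Golgi, rose from 1020, 1017 and 1007 normalized reads to 5986, 5696 and 5459 (2.49 on the log2 scale, SE 0.05, adjusted p = 1.6e-16). M6pr, the smaller receptor, had a log2 fold change of -0.22. Sort1, the receptor sortilin, which carries prosaposin among others, fell from 679, 631 and 666 to 171, 183 and 177 (log2 fold change -1.89, SE 0.07, adjusted p = 2.6e-13). Ap3d1, a subunit of the adaptor that sends membrane proteins to lysosomes, had a log2 fold change of -1.01. Of 14 genes for tethering and fusion with lysosomes 12 fell and 1, Vps16, rose (median -0.27), led by Plekhm1 (-0.82), Vps18 (-0.66) and Vamp8 (-0.64).

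The nearest related groups showed the same direction. Of 12 tested cathepsins 10 fell and 1 rose (median -1.0), and of 20 tested V-ATPase subunits, which form the proton pump, 18 fell and 1 rose (median -0.68). Both counts stand beside 28.3% of all tested genes that fell and 38.4% that rose. Differences between these medians and that of the 39 genes were not tested. Of the MiT/TFE factors, Mitf had a log2 fold change of -0.96, Tfeb of -0.44 and Tfe3 of -0.14 (adjusted p = 0.044), and all 3 were called lower, although the libraries of the 2 lines overlapped for Tfe3. Tfec, at 9.76, 8.16 and 9.15 normalized reads with GFP, was 0 in all NUR77 libraries and lay below the filter on low values.

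**Figure D5:**
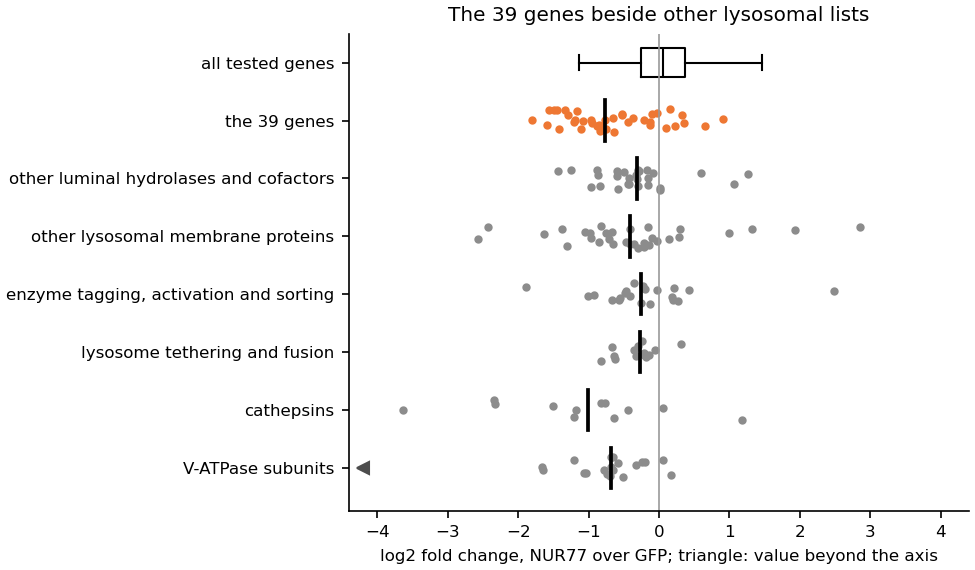
The log2 fold change of each tested gene (points) with the median of each list (bar), for the 39 genes and 6 other lysosomal lists, with all tested genes as a box whose whiskers run from the 5th to the 95th percentile. The medians lie at -0.77 for the 39 genes, between -0.25 and -0.41 for 4 further lysosomal lists, at -1.0 for cathepsins, at -0.68 for V-ATPase subunits and at 0.06 for all tested genes.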

How the data were processed

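RNA of 6 libraries, 3 per line, was analysed. Per the submitters' processing notes, TopHat2 2.1, HTSeq, DESeq2 and the mm10 build were used; no source used here gives the strand setting or annotation release. The authors deposited log2 values of normalized reads plus 1, which undo to 10000000 normalized reads per library; at a tolerance of 0.1, 100% of values came out as whole reads. Symbols and coordinates came from GENCODE M21 (GRCm38, the mm10 build), naming 22888 of 23154 genes. Genes with a mean of at least 10 normalized reads (11201) were fitted with limma 3.58.1 in R 4.3.3 (trend and robust variance) on log2(normalized reads + 1), with Benjamini-Hochberg adjustment over all of them and a threshold of 0.05; fold changes are on this scale. On simulated data for the comparison (11044 genes), 84% of 100 genes changed 1.3-fold and 100% of those changed 2-fold were recovered, and 5.64% of calls were false. The simulation changed only these genes, equally up and down, with the same variability setting for all genes and both lines. The data held many more changed genes and a larger spread with NUR77, so the rates may differ there. Exon lengths are unions of all isoforms. Values per library are given for each class's largest rise, largest fall and member nearest 0 and for genes whose promoter bases are printed; from other lists, the 3 largest called changes, with few further genes chosen after their values were seen. Promoters were printed only as short sites, beside 1 upstream stretch, so that no long untranslated stretch is shown. The 39 genes and all lists were chosen with earlier results of these data known. Other pseudocounts, filters, scalings and variance models, a replicate block, limma-voom and leaving out each library were tried. Some results are not reported here.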

Additional observations from a re-analysis of the deposited data

How the results depend on the processing

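Over 16 other settings the number of genes among the 39 called lower ranged from 28 to 31 and the number called higher from 5 to 6; leaving out 1 library gave 28 to 29 lower and 5 to 6 higher. Of the values of single genes under these settings, 609 kept their direction and side of the threshold, 8 came to pass, 6 no longer passed and 1 changed sign: leaving out 1 library gave Glb1 log2 fold changes of -0.070 to 0.012, the latter without GFP replicate 1 (adjusted p = 0.89). Manba and Cln3 passed as lower under TMM scaling (-0.17 and -0.20), by median of ratios (-0.15 and -0.18) and by upper quartile (-0.16 and -0.19), and Neu1 did not pass without a filter (adjusted p = 0.076), without the trend (0.057) or when any of 4 libraries was left out. TMM moved the median of all genes by -0.07, called 3606 genes higher and 3838 lower in place of 4305 and 3170, and gave the share of reads a ratio of 0.476. limma-voom on recovered reads, chosen after seeing the data, called 29 lower and 5 higher. With the replicate block the counts were also 29 and 5, with 4365 higher and 3220 lower over all genes; same-numbered libraries correlated at 0.0016, 0.11 and 0.045, so the numbers were not taken as pairs. The planned edgeR and DESeq2 fits on recovered reads were not run, and limma-voom took their place. Depth was 11199468 to 15929487 reads, and all 39 genes lay far above the filter; 3 libraries of 1 line per group limit the comparison, and an exact permutation test of 3 against 3 cannot go below p = 0.1.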
